A study of Rattus norvegicus with 8 samples.

Results

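A set of 9 potassium channel genes was followed in the stellate ganglion, the sympathetic ganglion that supplies the heart, of normotensive and hypertensive rats. They encode calcium-activated channels (Kcnma1, record NM_031828, Kcnn1, NM_019313, Kcnn2, NM_019314, Kcnn3, NM_019315, and Kcnn4, NM_023021), leak channels with 2 pore domains (Kcnk1, NM_021688, and Kcnk3, NM_033376) and inward rectifiers (Kcnj2, NM_017296, and Kcnj3, NM_031610). The genes were chosen by name, with earlier results of these data known. Each was represented by 1 RefSeq transcript record, 9 of the 18314 records in the files, and all 9 records were found. The 4 Wistar rats served as normotensive controls and the other 4 rats were spontaneously hypertensive rats (SHR). All were male and 16 weeks old, neither strain carried a transgene or received a treatment by the labels, and each library came from the right ganglion of a single rat. Wistar is an outbred stock and not the inbred Wistar-Kyoto strain, so strain background and blood pressure cannot be told apart here.

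Potassium channels let potassium leave the neuron and hold or return its membrane potential towards rest. Calcium-activated channels open when calcium enters during firing, of which the large conductance (BK) type also needs depolarisation and the small conductance (SK) type is gated by bound calmodulin and carries an afterhyperpolarisation that spaces action potentials. Leak channels set the resting potential, and the G protein-gated inward rectifiers (GIRK) open when a receptor coupled to an inhibitory G protein releases its beta and gamma subunits.

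The summed estimated counts ran from 25820299 to 35509074 per rat. The median record lay between 0.16 and 0.27 on the log2 scale from the mean of the other 3 rats of its strain, farthest in SHR replicate 1, and among the Wistar rats farthest in Wistar replicate 1 at 0.24. The defining markers of noradrenergic neurons were abundant: Th averaged 2220 TPM in Wistar and 2013 in SHR, and Dbh 5777 and 4753. Slc6a2, from the same list, went the other way, at 297 TPM in Wistar and 358 in SHR. None of these genes reached an adjusted p under 0.05 in the edgeR test given below. Ddc, also from that list, had 2 records called lower in SHR (log2 fold change -1.08 and -0.92), and another was not called. Of 10 marker lists for neurons, glia, vessels, immune cells, connective tissue, muscle and fat, each overlapped between the strains in summed TPM and no list had a marker at 0 throughout. Vascular smooth muscle markers were low in SHR replicates 3 and 4 (16.9 and 25.8 TPM against 55.2 to 126 in the other 6 rats), and adipocyte markers were highest in SHR replicate 1 (33.7 TPM against 1.63 to 14.3 in the others). The part of these marker differences in the results was not tested.

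The channel records spanned a wide range of levels when compared per transcript length, in TPM, which scales reads by transcript length and by library. Kcnn3, which encodes the SK3 subunit, was the most abundant of the 9 at 15.3 ± 2.38 TPM (SD, n = 8 rats), and Kcnma1, the pore-forming subunit of the BK channel, followed at 7.49 ± 1.69 TPM. Then came Kcnj3 (GIRK1) at 2.91 ± 1.20 TPM, Kcnk3 (TASK1) at 2.48 ± 1.16 TPM, Kcnk1 (TWIK1) at 2.10 ± 0.56 TPM and Kcnn2 (SK2) at 1.58 ± 0.55 TPM. Kcnn1 (SK1) reached 0.32 ± 0.23 TPM, Kcnj2, a strong inward rectifier, 0.044 ± 0.047 TPM, and the record of Kcnn4, the intermediate conductance channel, had no read in any rat. Other records of Kcnn4 carried reads, so this last place is that of the record and not of the gene. Reads outside a record's sequence were not counted, so the other places are those of the records as well. Neighbours in this order had ranges over the 8 rats that did not meet in 3 places only: between Kcnn3 and Kcnma1, between Kcnma1 and Kcnj3, and between Kcnn2 and Kcnn1. Among the 4 records from Kcnj3 to Kcnn2 the ranges of neighbours met. The order was the same when normalised counts per kilobase of record replaced TPM. Both measures scale the same estimated counts by length, so the match is no independent check of the order.

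**Figure D1:**
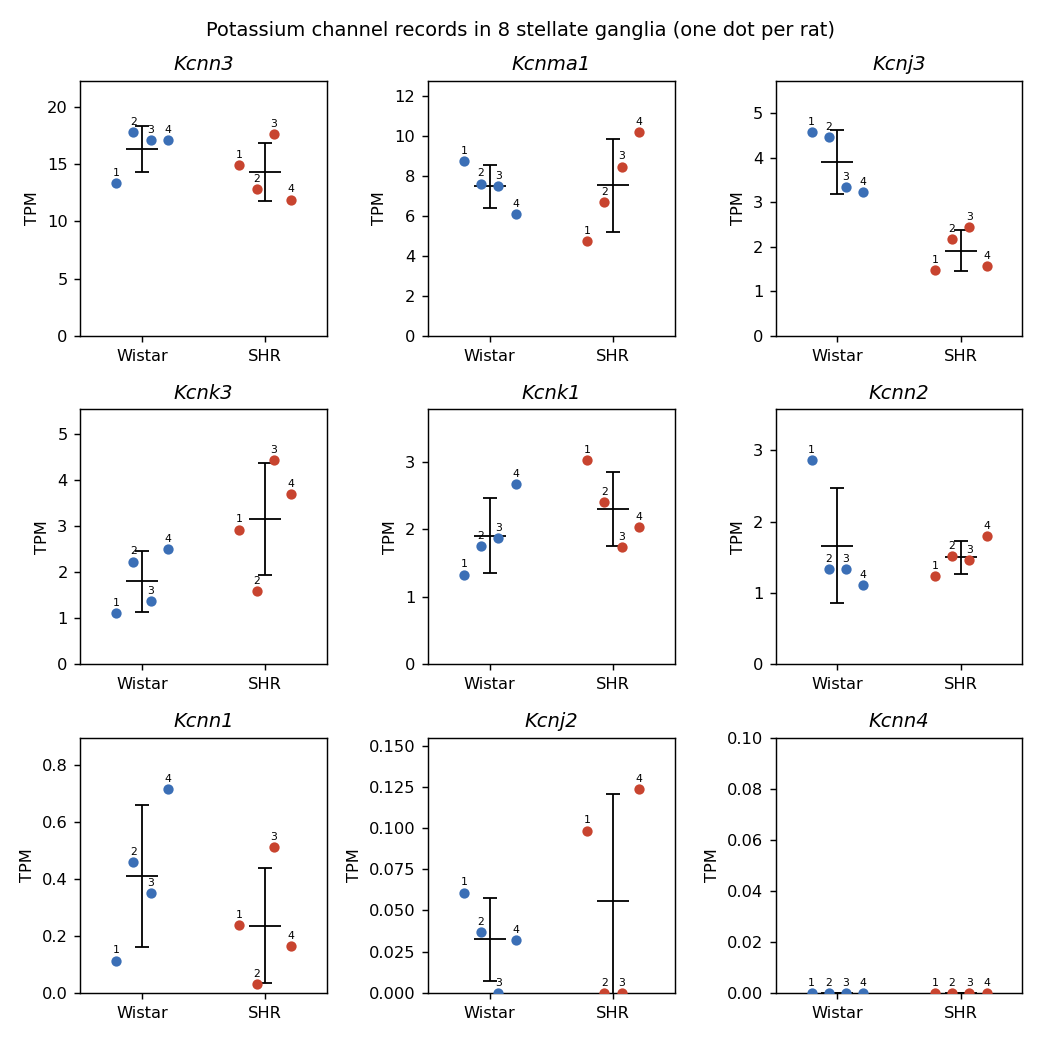
TPM of the 9 potassium channel records in each rat, by strain (4 Wistar rats in blue, 4 SHR in red). Each dot is 1 rat with its replicate number, and the cross line and bars are the mean ± SD, with a bar that would pass below 0 ending at the axis. Kcnj3 is the panel in which the strains do not overlap, at 3.23 to 4.58 TPM in Wistar and 1.48 to 2.45 TPM in SHR.

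To compare the strains, estimated counts were scaled between samples and tested with edgeR's quasi-likelihood test over all 13659 records that passed its filter on low counts. A record was called at a Benjamini-Hochberg adjusted p under 0.05, which 389 records reached, a share of 2.85% (1.16% higher in SHR and 1.69% lower). Of the 9 channel records 7 passed the filter, and 1 of them, Kcnj3, was called. The normalised counts of the strains did not overlap for 1 of these 7, Kcnj3 again, against 10.6% of all tested records (4.63% higher in SHR and 5.96% lower). With 1 member in each count, neither share stands for the channels as a group.

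Kcnj3 was the one channel record that fell in SHR. It encodes the GIRK1 subunit, the partner that GIRK channels of neurons and atrial muscle need for full current. Normalised counts were 214, 191, 141 and 142 in Wistar replicates 1 to 4 and 67.8, 103, 96.9 and 70.5 in SHR replicates 1 to 4. The lowest Wistar rat was above the highest SHR. The level was 3.90 ± 0.72 TPM in Wistar and 1.92 ± 0.47 TPM in SHR (SD, n = 4 each), and the log2 fold change was -1.03 (SE 0.23, 95% interval -1.54 to -0.52, adjusted p = 0.0449), a fold of 0.49 with an interval from 0.34 to 0.70. In TPM order Kcnj3 was the third of the 9 records in all 4 Wistar rats and the fourth to sixth in the SHR.

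The call lay near the threshold. When any of the 8 rats was left out, Wistar or SHR, the log2 fold change stayed between -1.12 and -0.91, and the adjusted p lay between 0.0526 and 0.135. Without both rats numbered 1 the log2 fold change was -0.82 with an adjusted p of 0.0874, whereas DESeq2 on all 8 rats gave -1.03 with 0.00292 and called 5.23% of records. DESeq2 with a length offset gave 0.00180 (6.27% called), and edgeR on records summed to genes 0.0377 (2.95% called).

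**Figure D2:**
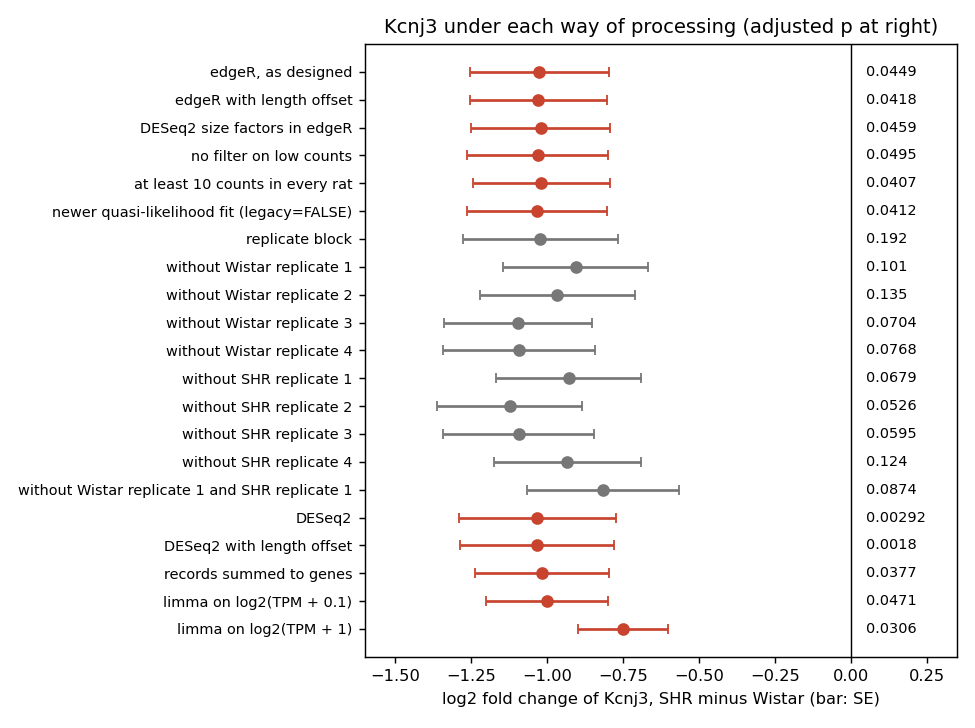
Log2 fold change of Kcnj3 (SHR minus Wistar) under each way of processing, with its standard error as a bar and the adjusted p at the right, red where it is under 0.05. All estimates lie below 0, and removing any 1 rat moves the adjusted p above 0.05.

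In bulk tissue, fewer neurons and less RNA per neuron cannot be told apart. The summed TPM of the sympathetic neuron markers was 8915 to 10320 in Wistar and 6433 to 9510 in SHR. Of the 7 tested records of that list, 2 were called lower in SHR, where 1.69% of all tested records were. Both are records of Ddc, the aromatic amino acid decarboxylase (-1.08 and -0.92 on the log2 scale). Another Ddc record was at 0.17 and was not called (adjusted p = 0.850). Of the summed TPM of these markers, Dbh gave most (on average 5777 of 9404 in Wistar and 4753 of 8007 in SHR). Relative to 1000 TPM of those markers, Kcnj3 was at 0.444, 0.481, 0.367 and 0.362 TPM in Wistar replicates 1 to 4. The SHR stood at 0.231, 0.272, 0.257 and 0.194 TPM on the same scale. The strains did not overlap on this scale either, which was described and not tested.

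The other GIRK subunits can join GIRK1. Kcnj6, the GIRK2 subunit, was at 0.559, 0.951, 0.702 and 0.975 TPM in Wistar replicates 1 to 4 and 1.49, 0.689, 1.83 and 1.22 TPM in SHR replicates 1 to 4. In all, 3 of the SHR lay above every Wistar rat and SHR replicate 2 lay among them, and the log2 fold change of 0.71 did not pass the threshold (SE 0.25, 95% interval 0.14 to 1.28, adjusted p = 0.199). Kcnj5 (GIRK4) averaged 0.40 ± 0.20 TPM in Wistar and 0.50 ± 0.23 TPM in SHR, with a log2 fold change of 0.32 (SE 0.43, adjusted p = 0.750). Kcnj9 (GIRK3) averaged 0.52 ± 0.30 and 0.26 ± 0.17 TPM, with a log2 fold change of -0.96 (SE 0.68, adjusted p = 0.497). Salmon divides a read that fits several records among them, and the counts of Kcnj6 and Kcnj9 were not whole numbers in any of the 8 rats, so part of their reads was assigned by estimation. The Kcnj3 counts were whole in all rats.

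As a share of the summed TPM of the 4 GIRK subunits, Kcnj3 made up 69.5% ± 9.1 in Wistar and 49.1% ± 13.8 in SHR, with overlap at SHR replicate 2 (69.0%). Kcnj6 made up 10.05%, 14.2%, 14.2% and 18.5% in the Wistar rats and 38.7%, 21.9%, 35.3% and 32.3% in the SHR. For Kcnj6 the shares did not overlap between the strains. The summed TPM of the 4 subunits averaged 5.62 ± 0.78 in Wistar and 3.99 ± 0.86 in SHR. These shares contain the Kcnj3 difference already given and were not tested. They also rest on the scaling by record length, since Kcnj6 had more estimated counts than Kcnj3 in each rat. The counts were 260 against 223 in Wistar replicate 1 and 729 against 103 in SHR replicate 3.

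**Figure D3:**
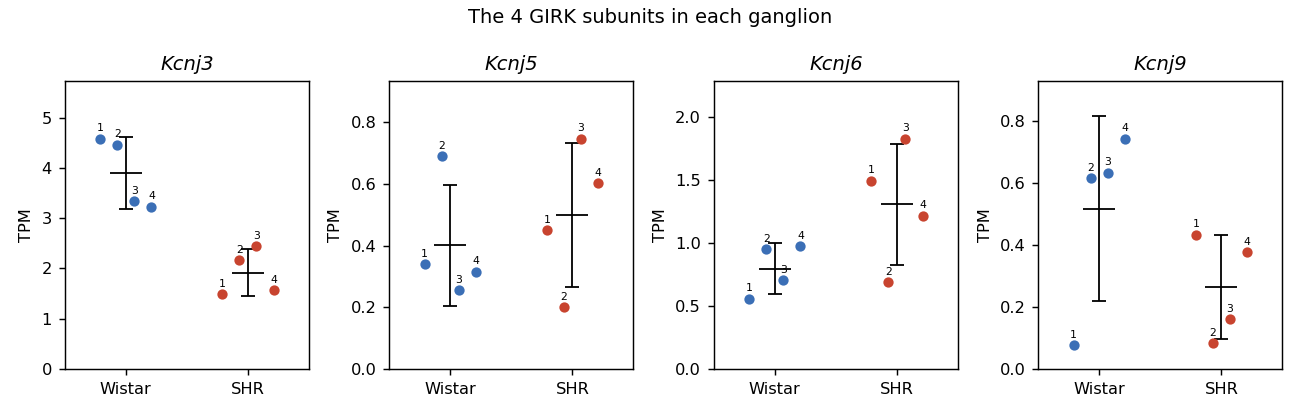
TPM of the 4 GIRK subunits in each rat, by strain (Wistar in blue, SHR in red, n = 4 each). Dots carry the replicate number, and the cross line and bars are the mean ± SD. Kcnj3 is lower in all 4 SHR, while Kcnj6 is higher in 3 of the 4 SHR than in any Wistar rat without passing the test.

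Among 22 genes that control GIRK channels (G protein subunits, their regulators and inhibitory receptors), 21 had a record and 21 records were tested. In SHR 3 of the 21 records fell, where 1.69% of all tested records did, and none rose, where 1.16% did. This list and the lists of channel partners below were chosen with earlier results of these data known. Their counts are therefore a description and no test of a list. The list's median log2 fold change was -0.19 against 0.0070 over all tested records. All 3 called records encode subunits or a regulator of G proteins. Gnb3, a beta subunit, had normalised counts of 1710, 1857, 1889 and 1585 in Wistar replicates 1 to 4 and 1037, 1229, 1123 and 1054 in SHR replicates 1 to 4, with a log2 fold change of -0.66 (SE 0.10, adjusted p = 0.00618). Gng7, a gamma subunit, had 744, 786, 840 and 708 in Wistar and 373, 350, 239 and 411 in SHR, with a log2 fold change of -1.16 (SE 0.17, adjusted p = 0.00460). Rgs8, which speeds the return of G proteins to their resting state, had 1863, 1439, 1678 and 1381 in Wistar and 907, 947, 1103 and 880 in SHR, with a log2 fold change of -0.73 (SE 0.13, adjusted p = 0.0124). Each SHR lay below each Wistar rat for these 3 genes, and each call held when any 1 rat was left out. The counts of Rgs8 were not whole in any rat, and limma on log2(TPM + 0.1) gave it an adjusted p of 0.0538.

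Kcnk3 and Kcnk1, the leak channels, did not pass the test. Kcnk3 encodes TASK1, a background channel closed by external acid. Its normalised counts were 51.9, 95.8, 61.0 and 115 in Wistar replicates 1 to 4 and 135, 72.7, 176 and 157 in SHR replicates 1 to 4. SHR replicate 2 lay within the Wistar range and the other 3 SHR above it. The log2 fold change was 0.74 (SE 0.33, 95% interval -0.0032 to 1.49, adjusted p = 0.299), so the interval reached from no difference to a fold of 2.81. The Kcnk3 counts were not whole in any rat.

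Kcnk1 encodes TWIK1, a 2-pore channel that carries little current at the cell surface. Its normalised counts were 85.5, 103, 110 and 162 in Wistar and 190, 156, 95.03 and 125 in SHR. The strains overlapped, and the log2 fold change was 0.29 (SE 0.27, 95% interval -0.31 to 0.90, adjusted p = 0.620). Without both rats numbered 1 it was -0.013. Of 12 other 2-pore channel genes, 11 had a record and 11 records were tested, none of which was called (median log2 fold change -0.20).

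The mean normalised count of Kcnma1 was 925 ± 166 for the Wistar rats and 931 ± 277 for the SHR. By rat, the counts were 1148, 915, 889 and 748 in Wistar replicates 1 to 4 and 611, 889, 940 and 1287 in SHR replicates 1 to 4. The Wistar rats lay inside the range of the SHR, and the coefficient of variation was 17.9% in Wistar and 29.8% in SHR. The log2 fold change was 0.011 (SE 0.21, 95% interval -0.46 to 0.49, adjusted p = 0.987). Its sign turned without Wistar replicate 4 (-0.064) and without SHR replicate 4 (-0.17). The counts of this record were not whole in any rat.

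BK channels carry auxiliary subunits that shift their calcium and voltage sensitivity. Kcnmb4, the subunit of neurons, was the most abundant by far, at 54.3 ± 5.6 TPM in Wistar and 61.2 ± 4.7 TPM in SHR, with a log2 fold change of 0.19 (SE 0.12, adjusted p = 0.463). The ratio of Kcnmb4 to Kcnma1 TPM was 5.77, 7.58, 6.52 and 9.96 in Wistar replicates 1 to 4 and 12.5, 10.2, 6.86 and 5.83 in SHR replicates 1 to 4, which overlapped. The size of this ratio rests on the scaling by record length. Over all rats the estimated counts were 1224 to 1531 for Kcnmb4 and 603 to 1369 for Kcnma1. Kcnmb3 averaged 0.64 and 0.59 TPM (log2 fold change -0.11, SE 0.39, adjusted p = 0.917). Lrrc52, a leucine-rich repeat subunit, averaged 3.73 ± 1.24 TPM in Wistar and 2.43 ± 0.74 in SHR (log2 fold change -0.58, SE 0.34, adjusted p = 0.426). Kcnmb1, Kcnmb2, Lrrc26 and Lrrc38 were below the filter, with at most 12 estimated counts in any rat. Of 7 BK subunit records, 3 were tested and none was called, and neither of the 2 tested relatives of BK was called.

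The SK family was dominated by Kcnn3. Of the summed TPM of the 4 Kcnn records, Kcnn3 made up 81.8%, 90.8%, 91.0% and 90.3% in Wistar replicates 1 to 4 and 91.0%, 89.3%, 89.9% and 85.8% in SHR replicates 1 to 4. The means were 88.5% ± 4.5 and 89.0% ± 2.2. Kcnn2 made up 9.34% ± 5.48 and 9.62% ± 2.65, and Kcnn1 2.17% ± 1.27 and 1.37% ± 0.99. The followed Kcnn4 record was at 0, so these shares leave out the reads of the other Kcnn4 records. Summed over its records, Kcnn4 was at 0.273 to 0.731 TPM in Wistar and 0.0889 to 0.655 TPM in SHR. In exact two-sided permutation tests the shares differed with p = 0.943 for Kcnn3, p = 0.857 for Kcnn2 and p = 0.371 for Kcnn1 (adjusted p = 0.943 for each over 3 tests), where the smallest p that 4 against 4 rats allow is 0.0286.

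Kcnn3 itself had normalised counts of 947, 1169, 1120 and 1165 in Wistar replicates 1 to 4 and 1049, 921, 1078 and 803 in SHR replicates 1 to 4. The strains overlapped, with SHR replicate 4 the lowest. The log2 fold change was -0.19 (SE 0.12, 95% interval -0.47 to 0.083, adjusted p = 0.460), so the interval reached down to a fold of 0.72. The counts were not whole in any rat.

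Kcnn2 had normalised counts of 133, 56.4, 56.4 and 48.4 in Wistar and 55.7, 70.1, 56.5 and 78.9 in SHR. Wistar replicate 1 stood above all other rats. The log2 fold change was -0.17 (SE 0.35, 95% interval -0.94 to 0.60, adjusted p = 0.842), and without Wistar replicate 1 it was 0.27. A second Kcnn2 record had no read in any rat.

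The Kcnn1 record, of 1611 bases, was near the limit of detection, with 5 to 31 estimated counts in Wistar and 1 to 20 in SHR. Normalised counts were 4.80, 18.1, 13.9 and 29.4 in Wistar and 10.1, 1.30, 18.8 and 6.58 in SHR, which overlapped. The log2 fold change of -0.81 had a 95% interval from -2.38 to 0.76 (SE 0.71, adjusted p = 0.592), wide enough to hold a large change in either direction.

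Kcnn4 had 4 records, and the one followed here had no read assigned in any rat. A limit from counting error does not apply to this 0, since reads of the gene were assigned to its other records. Another Kcnn4 record carried 150 of the 164 reads assigned to the gene. Summed over its records the gene had 18, 11, 37 and 21 counts in Wistar replicates 1 to 4 and 23, 3, 30 and 21 in SHR replicates 1 to 4. The strains overlapped, and the gene-level log2 fold change was -0.13 (SE 0.54, 95% interval -1.34 to 1.08, adjusted p = 0.927).

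SK channels open through calmodulin, and the kinase CK2 and the phosphatase PP2A set its calcium sensitivity at the channel. Of 9 tested records of these 8 genes, 1 rose, where 1.16% of all tested records did, and none fell, where 1.69% did. The median log2 fold change was -0.017. Csnk2a1, a catalytic subunit of CK2, was the one that rose. Its normalised counts were 1599, 1528, 1472 and 1392 in Wistar replicates 1 to 4 and 2397, 2554, 2947 and 2830 in SHR replicates 1 to 4. Every SHR lay above every Wistar rat, and the log2 fold change was 0.84 (SE 0.097, adjusted p = 0.00134). It was called under every alternative run.

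Calm2 and Calm3, which encode calmodulin, were not called. Calm2 averaged 3271 TPM in Wistar and 3169 TPM in SHR (log2 fold change -0.028, SE 0.11, adjusted p = 0.925). Calm3 was at 201, 423, 479 and 552 TPM in Wistar replicates 1 to 4 and 526, 271, 232 and 264 TPM in SHR replicates 1 to 4 (log2 fold change -0.31, SE 0.33, adjusted p = 0.677). In each strain the rat numbered 1 lay on the other strain's side for Calm3.

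Calcium reaches these channels through voltage-gated channels and from internal stores. Of 14 such genes 11 had a record. Of 13 tested records 2 fell, where 1.69% of all tested records did, and none rose, where 1.16% did. The median log2 fold change was 0.24. Cacna1c, the pore of the L-type calcium channel Cav1.2, had normalised counts of 122, 187, 225 and 176 in Wistar and 87.1, 55.8, 66.8 and 70.5 in SHR. The strains did not overlap, and the log2 fold change was -1.34 (SE 0.24, adjusted p = 0.0140). The call was lost without Wistar replicate 2 (adjusted p = 0.0580), without Wistar replicate 3 (0.0584) or without SHR replicate 4 (0.0560), and in limma on log2(TPM + 1), where the log2 fold change was -0.44 (0.0756). Cacna1c averaged 0.77 TPM in Wistar and 0.30 TPM in SHR, so adding 1 TPM shrinks its fold change.

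Ryr2, a calcium release channel of the endoplasmic reticulum, had 2 records that went apart. One had normalised counts of 67.3, 89.5, 67.5 and 61.7 in Wistar replicates 1 to 4 and 9.11, 7.79, 12.2 and 25.4 in SHR replicates 1 to 4, with a log2 fold change of -2.36 (SE 0.40, adjusted p = 0.0113). In limma this record was at -1.05 on log2(TPM + 0.1), and at -0.18 with an adjusted p of 0.312, no longer called, on log2(TPM + 1). It averaged 0.17 TPM in Wistar and 0.033 TPM in SHR, so either added constant shrinks its fold change. The other, more abundant record averaged 0.95 and 1.45 TPM, with a log2 fold change of 0.60 (SE 0.27, adjusted p = 0.299). Summed to the gene the log2 fold change was 0.41 with an adjusted p of 0.445, and the counts of the called record were not whole in any rat, so the fall belongs to 1 record and is uncertain for the gene.

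**Figure D4:**
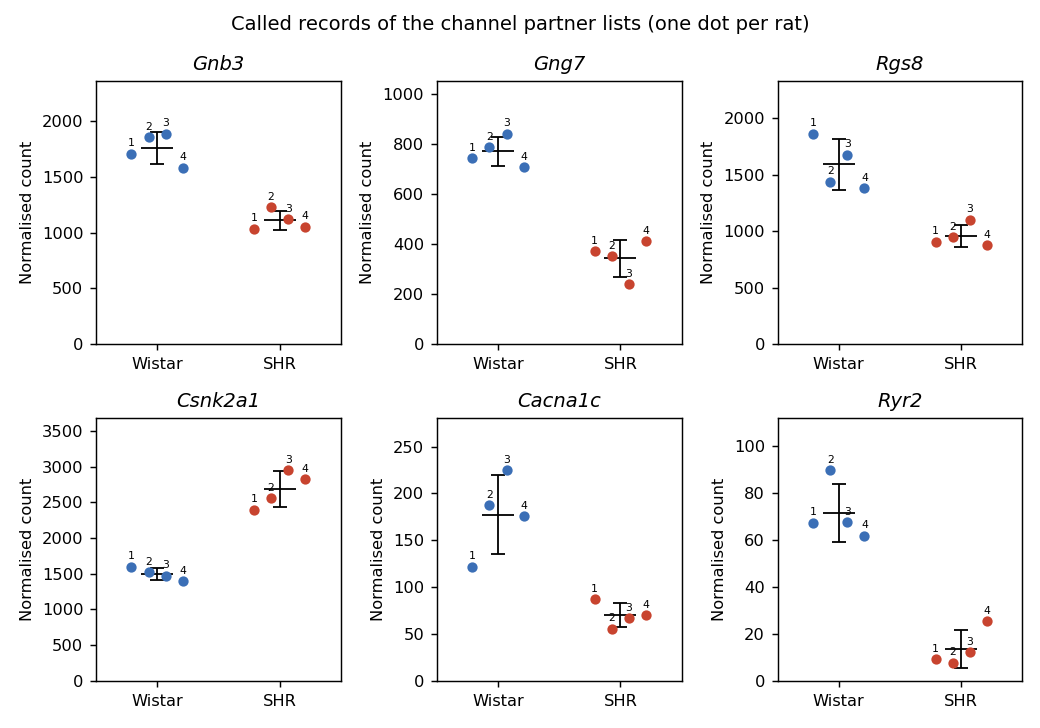
Normalised counts of the 6 called partner records in each rat, by strain (Wistar in blue, SHR in red, n = 4 each). Dots carry the replicate number, and the cross line and bars are the mean ± SD. Csnk2a1 is higher in all 4 SHR, and Gnb3, Gng7, Rgs8, Cacna1c and the 1 Ryr2 record are lower in all 4 SHR.

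The record of Kcnj2, the classical strong inward rectifier, was barely detected, and reads outside its sequence were not counted. This record of 1284 bases had 2, 1, 0 and 1 counts in Wistar replicates 1 to 4 and 3, 0, 0 and 4 in SHR replicates 1 to 4. A count of 0 allows up to 3 counts, so these counts could show only a large difference, and the record was below the filter of the main test. In the edgeR fit with no filter on low counts its log2 fold change was 0.76 (SE 1.19, adjusted p = 0.796). Of 11 tested records of the other inward rectifiers and the sulphonylurea receptors that join them, none was called (median log2 fold change 0.12).

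Over all partner lists, 73 records other than the 9 were tested, with a median log2 fold change of -0.028. Of these, 1 rose, where 1.16% of all tested records did, and 5 fell, where 1.69% did. The lists were chosen with earlier results of these data known, so these counts are a description only.

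**Figure D5:**
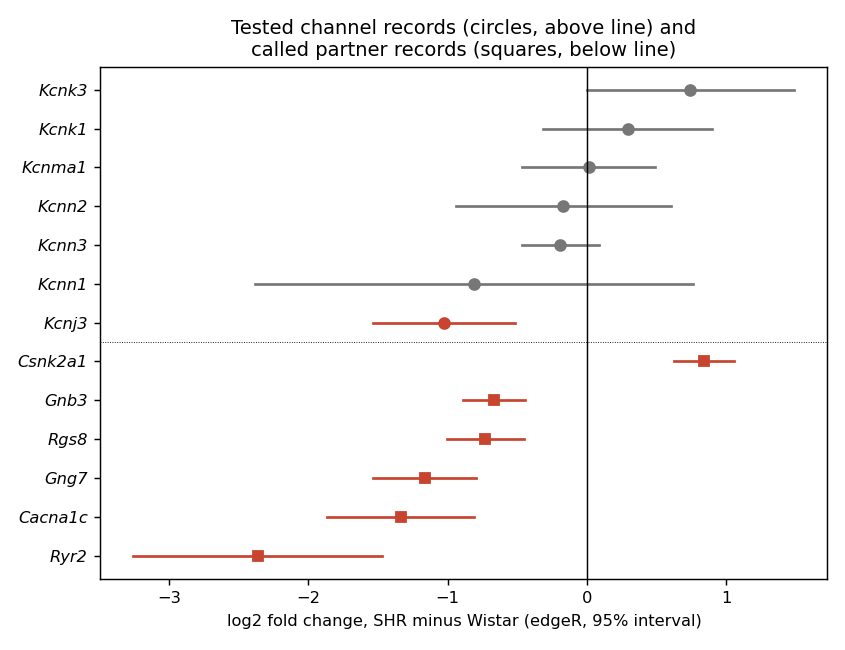
Log2 fold change (SHR minus Wistar, edgeR) with its 95% interval for the 7 tested channel records (circles, above the dotted line) and the 6 called partner records (squares, below it), red where the adjusted p is under 0.05. Kcnj3 is the only channel record in red, and the interval of Kcnn1 is the widest among the channels.

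The 3 tested records whose log2 CPM followed Kcnj3 most closely over the 8 rats were Aldh1b1, a mitochondrial aldehyde dehydrogenase (Pearson r = 0.992), Apba2, a neuronal adaptor protein (0.990), and Tsnax, a partner of translin (0.985). The 8 points share libraries and strains, and these values are a description picked as the highest of 13659 records. The log2 fold changes of these records were -0.51, -0.41 and -0.25, and none was called (adjusted p = 0.0606, 0.0542 and 0.125).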

How the data were processed

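RNA of 4 Wistar and 4 SHR right stellate ganglia was sequenced as paired reads, 1 library per rat. The kits differ between sources: stranded mRNA and micro extraction kits in the labels, SMARTer amplification with an RNeasy Mini kit in the paper's methods. The submitters' processing notes name FastQC 0.11.7, Salmon 0.8.2 and rn6. The authors mapped reads to RefSeq transcripts of rn6 with correction for GC and positional bias, and deposited for each record an expected count (an estimated count that need not be whole, not normalised between samples) and a TPM. The authors' files also give record length and effective length. Reads outside a record's sequence were not counted.

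Estimated counts were rounded and tested with edgeR 4.0.16 (TMM, filterByExpr, glmQLFit and glmQLFTest with defaults, strain as the only term) in R 4.3.3, with Benjamini-Hochberg adjustment over all tested records and a threshold of 0.05. Normalised counts are CPM after TMM scaling, brought to the mean effective library size. The SE is the absolute log2 fold change over the square root of F. TPM was used for levels and shares, and estimated counts under 0.01 were set to 0 there. A count was called not whole when it lay more than 0.01 from a whole number. Shares were tested by exact permutation (scipy 1.17.1). The alternatives used DESeq2 1.42.0 (also with a length offset), limma 3.58.1 on log2(TPM + 0.1) and log2(TPM + 1), other scaling and filters, a replicate block, gene sums, and leaving out rats. Depth was 25820299 to 35509074 counts per rat, and limits from counts of 0 cover counting error only.

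Symbols came from a RefSeq table of assembly GRCr8, which matched 94.8% of records and was used for names only. All 9 channel records were named, along with partner genes past the threshold, GIRK and BK subunits, Calm2 and Calm3, and for a called channel the 3 records most correlated with it. The members and lists were chosen with earlier results of these data known. Some items under the naming rule are not reported here. The fit was tested on simulated counts. The labels call the rats biological replicates.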

Additional observations from a re-analysis of the deposited data

Results flagged for a closer look

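Wistar replicate 1 stood apart for the SK channels. Its Kcnn2 normalised count of 133 was far above the other 3 Wistar rats (48.4 to 56.4). Its Kcnn2 share of the summed Kcnn TPM, 17.5%, was far above theirs, and its Kcnn3 share, 81.8%, far below. In all 3 cases the gap to the nearest rat, divided by the range of the strain, exceeded Dixon's 95% critical value for 4 samples. Of 22 groups of 4 rats tested this way 3 exceeded it, where chance gives about 1 in 20, and the 3 share the same Kcnn2 count.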

How the results depend on the processing

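Kcnj3 kept its direction in all 20 alternatives and its call in 10. It was not called with the replicate block (-1.02, adjusted p = 0.192), without both rats numbered 1 (-0.82), or without any 1 rat (-1.12 to -0.91), and the number of called channel records was then 0 (lowest and highest 0 without 1 rat), as was the number lower in SHR. Over all tested records, same-numbered rats did not deviate together (correlations of -0.29, -0.12, -0.16 and -0.038). In each strain, though, replicate 1 lay farthest from the other rats (0.24 in Wistar and 0.27 in SHR on the log2 scale). Its adipocyte markers were also the highest of the strain (14.3 and 33.7 TPM). Whether same-numbered rats shared handling was not tested. The replicate block left 132 called records (44 higher, 88 lower). DESeq2 called 782 (353 and 429), DESeq2 with a length offset 852 (377 and 475), and the fit without both rats numbered 1 called 1068 (303 and 765). Without 1 rat the calls ranged from 237 to 454 (92 to 198 higher, 136 to 256 lower).

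Fold changes near 0 changed sign. Kcnma1 was -0.020 with the replicate block, -0.036 and -0.027 in limma with pseudocounts of 0.1 and 1, -0.17 to 0.17 without 1 rat, and 0.28 without both rats numbered 1. Kcnn2 was -0.31 to 0.27 without 1 rat and 0.34 without both rats numbered 1, where Kcnk1 was -0.013 (0.11 to 0.52 without 1 rat). The share difference (SHR minus Wistar, percentage points) ran from -0.87 to 3.01 for Kcnn2 and from -1.71 to 1.58 for Kcnn3 without 1 rat, and was 3.70 and -2.38 without both rats numbered 1. Of the partner records, the block ended the calls of Rgs8, Cacna1c, Gnb3, Gng7 and Ryr2, and the 1 called Ryr2 record gave 0.41 when summed to the gene. The causes were not tested. Kcnn1, Kcnj2 and the sum of the Kcnn4 records had few counts, and the part of depth or of record extent in this was not tested. The 0 of the followed Kcnn4 record also depends on read assignment.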
